A study of Arabidopsis thaliana with 17 samples.

Results

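Alpha-expansins are small secreted proteins of the plant cell wall, and 10 of their genes were followed here in cut hypocotyls of Arabidopsis thaliana: EXPA1 (AT1G69530), EXPA2 (AT5G05290), EXPA3 (AT2G37640), EXPA4 (AT2G39700), EXPA5 (AT3G29030), EXPA6 (AT2G28950), EXPA8 (AT2G40610), EXPA10 (AT1G26770), EXPA11 (AT1G20190) and EXPA15 (AT2G03090). The 10 genes were taken by locus identifier from a table of 28642 genes, by a list drawn up when earlier results of these data were known. All samples were stems (hypocotyls) of seedlings raised in darkness, cut sharply and then left in darkness on MS-0 plates for 0, 1, 3, 6, 12 or 24 h. Each time point up to 12 h had 3 libraries and 24 h had 2, and n has these values throughout. Ecotype, genotype and seedling age are not given in the labels, every group was cut, and uncut hypocotyls of matched incubation times were not analysed here. Nothing in the labels tells whether the libraries of a time point came from separate plants, so a p-value covers only the spread among these samples, which may be technical.

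Expansins loosen the cell wall at acid pH without cutting its polymers, apparently by weakening the contacts between cellulose microfibrils and the other wall polysaccharides. Wall acidification by proton pumps of the plasma membrane and wall loosening by expansins together form the acid growth mechanism, through which auxin and brassinosteroids drive cell elongation. The dark-grown hypocotyl is a classical tissue for this mechanism because it lengthens almost wholly by cell elongation.

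Levels are given in RPKM, which scales the reads of a gene by the length of its gene model and by how many reads the library mapped, so that levels can be compared between genes. Library depth was 7717255 to 20740957 mapped reads, with 20740957 in library 1 of 0 h, 11760741 and 11736568 at 24 h, and at most 7872179 elsewhere. Changes are differences of mean log2(RPKM + 1), written as log2 changes, and understate the change of low genes. They were tested with limma for the 19656 genes with at least 1 RPKM in at least 2 libraries, with p-values adjusted by Benjamini and Hochberg over those genes and called at 0.05. Of the 10 genes 9 passed this filter, and EXPA2 did not. In bulk tissue fewer cells of a type and less RNA per cell cannot be told apart.

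The tissue was checked by markers. The summed level of 4 epidermis markers (ATML1, PDF2, FDH and CER6) was 795.0 to 913.6 RPKM at 0 h, 383.8 to 400.7 after 1 h, 231.5 to 278.7 at 3 h, 73.7 to 91.8 after 6 h, 190.2 to 221.2 at 12 h and 194.2 to 204.2 after 24 h. CER6 made up most of this sum, at 647.4 to 741.3 RPKM at 0 h. Only CER6 and FDH rose from 6 h to 12 h. ATML1 was at 1.58 to 1.84 RPKM at 6 h and 1.12 to 1.23 at 12 h, and PDF2 at 5.30 to 6.07 and 4.21 to 5.81. The 4 root hair markers summed to at most 2.06 RPKM in any library, and 2 of the 4 were at 0 in every library of 0 h. The 5 xylem markers summed to 383.4 to 398.3 RPKM at 0 h and to 105.1 to 127.7 after 24 h, and the 4 shoot apex markers to 79.2 to 97.7 at 0 h and 32.6 to 58.2 later. Nearly all of the apex sum was KNAT1, at 78.8 to 94.6 RPKM at 0 h. STM was at most 2.90 RPKM, and WUS and CLV3 had at most 1 read in any library. The 4 markers of green tissue summed to 198.6 RPKM in library 1 of 12 h and to at most 19.8 in both libraries of 24 h. The part of these shifts in the results below was not tested.

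Library 3 of 0 h stood apart from the other libraries of its time point. In library 3 of 0 h, EXPA11 was at 0.559 RPKM against a mean of 24.7 in libraries 1 and 2, a 44.3-fold gap, and EXPA3 was at 2.65 against 30.7, an 11.6-fold gap. EXPA8 and EXPA5 had no read there, against means of 11.2 and 3.56 RPKM. EXPA1 and EXPA10 were lower by 1.79-fold and 2.22-fold, whereas the levels of EXPA4, EXPA6 and EXPA15 were 1.03, 1.17 and 0.994 times those of the other libraries. Library 3 of 1 h was low for the same 4 genes, with EXPA11 at 0.680 against 6.96 RPKM, EXPA5 at 0.1002 against 1.20, EXPA8 at 0.234 against 1.81 and EXPA3 at 4.40 against 14.0. In library 3 of 3 h the 4 genes were lower by less, with differences of log2(RPKM + 1) between -0.62 and -0.32. EXPA6 (-0.63) and EXPA15 (-0.46) were as low there, so the differences at 3 h do not set the 4 genes apart.

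**Figure D1:**
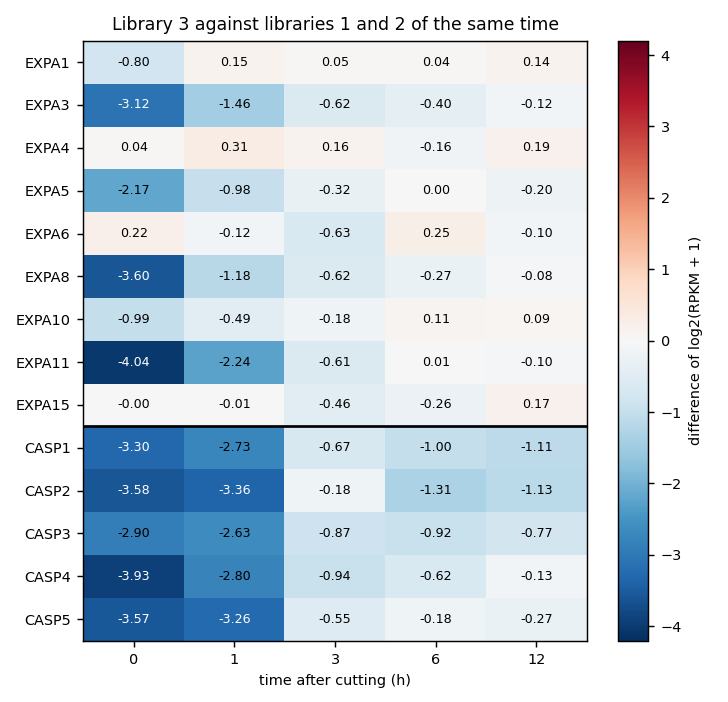
Difference of log2(RPKM + 1) between library 3 and the mean of libraries 1 and 2 of the same time point, for the 9 tested alpha-expansins and, under the line, the 5 Casparian strip genes CASP1 to CASP5; 24 h has no library 3. The values for EXPA3, EXPA5, EXPA8 and EXPA11 run from -4.04 to -2.17 at 0 h and those for CASP1 to CASP5 from -3.93 to -2.90.

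Such gaps were rare among all genes. Of the 19656 tested genes, 437 (2.22%) were at least 2-fold lower on the log2(RPKM + 1) scale in library 3 of 0 h and 78 (0.397%) at least 2-fold higher, and 28 were at least 8-fold lower, of which EXPA3, EXPA8 and EXPA11 were 3. The summed level of CASP1 to CASP5, genes of the Casparian strip and so of the endodermis, was 238.7, 196.1 and 16.1 RPKM in libraries 1, 2 and 3 of 0 h, and 111.1, 86.7 and 8.93 RPKM in those of 1 h. These 5 genes were chosen after their values were seen, and what sets the third libraries apart was not tested. In library 3 of 0 h the epidermis sum was 795.0 RPKM against 913.6 and 843.0 in libraries 1 and 2, and the xylem sum 386.7 against 398.3 and 383.4. The sum of the green tissue markers was lowest in library 3 of 0 h and of 1 h, at 5.91 RPKM against 11.8 and 16.0 at 0 h and at 5.87 against 10.3 and 9.37 at 1 h. The shoot apex marker STM, singled out after its values were seen, was also lowest there, at 0.373 RPKM against 2.05 and 2.90 at 0 h and at 0.0947 (1 read) against 1.52 and 1.13 at 1 h, while the sum of all 4 apex markers was 79.2 against 91.4 and 97.7 RPKM at 0 h and 36.2 against 32.6 and 42.5 at 1 h. Results for EXPA1, EXPA3, EXPA5, EXPA8, EXPA10 and EXPA11 are therefore given with and without library 3 of 0 h. That library was singled out from the values of these same genes. Leaving it out raises their 0 h means and so must strengthen their falls. The values without it are thus a description and no separate support.

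The summed level of the 10 genes moved in a dip and a rise. It was 347.7 ± 47.2 RPKM at 0 h, 187.3 ± 6.99 after 1 h, 483.6 ± 36.0 at 3 h, 873.6 ± 23.5 after 6 h, 1015.2 ± 132.4 at 12 h and 692.8 ± 8.27 after 24 h (SD). EXPA4 had the highest level of the 10 in each of the 17 libraries and made up between 54.7% ± 2.20 of the sum at 6 h and 70.1% ± 1.12 at 24 h. The makeup of the rest changed. EXPA1 supplied 6.28% ± 1.23 of the sum at 0 h and 38.4% ± 1.84 after 6 h, and EXPA15 10.2% ± 1.75 at 0 h and 0.139% ± 0.0528 after 6 h. Without EXPA4 the sum was 128.0 ± 47.5 RPKM at 0 h (73.2 in library 3), 61.1 ± 10.9 after 1 h, 395.6 ± 10.2 at 6 h and 207.5 ± 10.2 after 24 h.

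**Figure D2:**
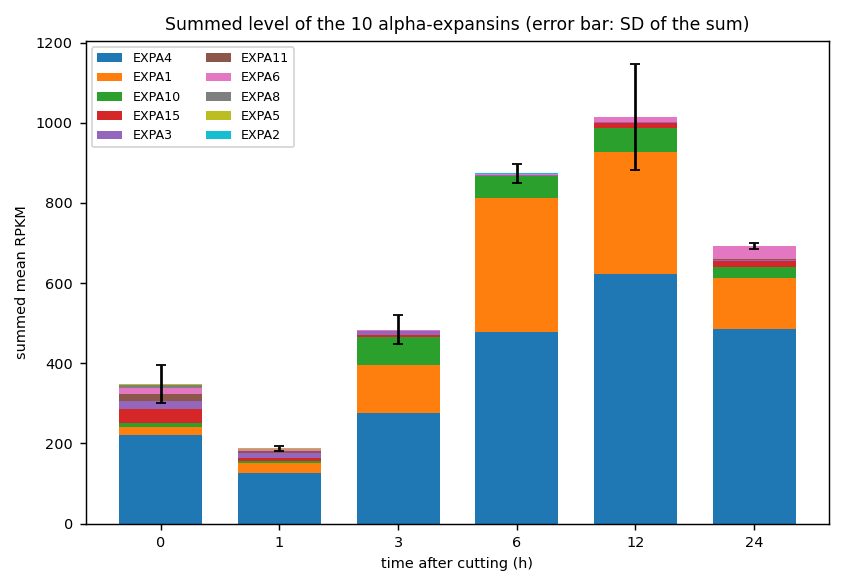
Mean RPKM of the 10 alpha-expansins stacked at each time after cutting, with the SD of the summed level as error bar (n = 3, and n = 2 at 24 h); the time points are evenly spaced. The stack is lowest at 1 h (187.3 RPKM) and highest at 12 h (1015.2 RPKM), and EXPA4 and EXPA1 fill most of it from 3 h on.

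The single genes followed 3 patterns. EXPA1, EXPA4 and EXPA10 were called higher than at 0 h at each time from 3 h on. EXPA6 and EXPA15 were called lower from 1 h to 6 h and then climbed. EXPA3, EXPA5, EXPA8 and EXPA11 were at their highest mean at 0 h and low from 6 h on, with the third libraries as described.

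**Figure D3:**
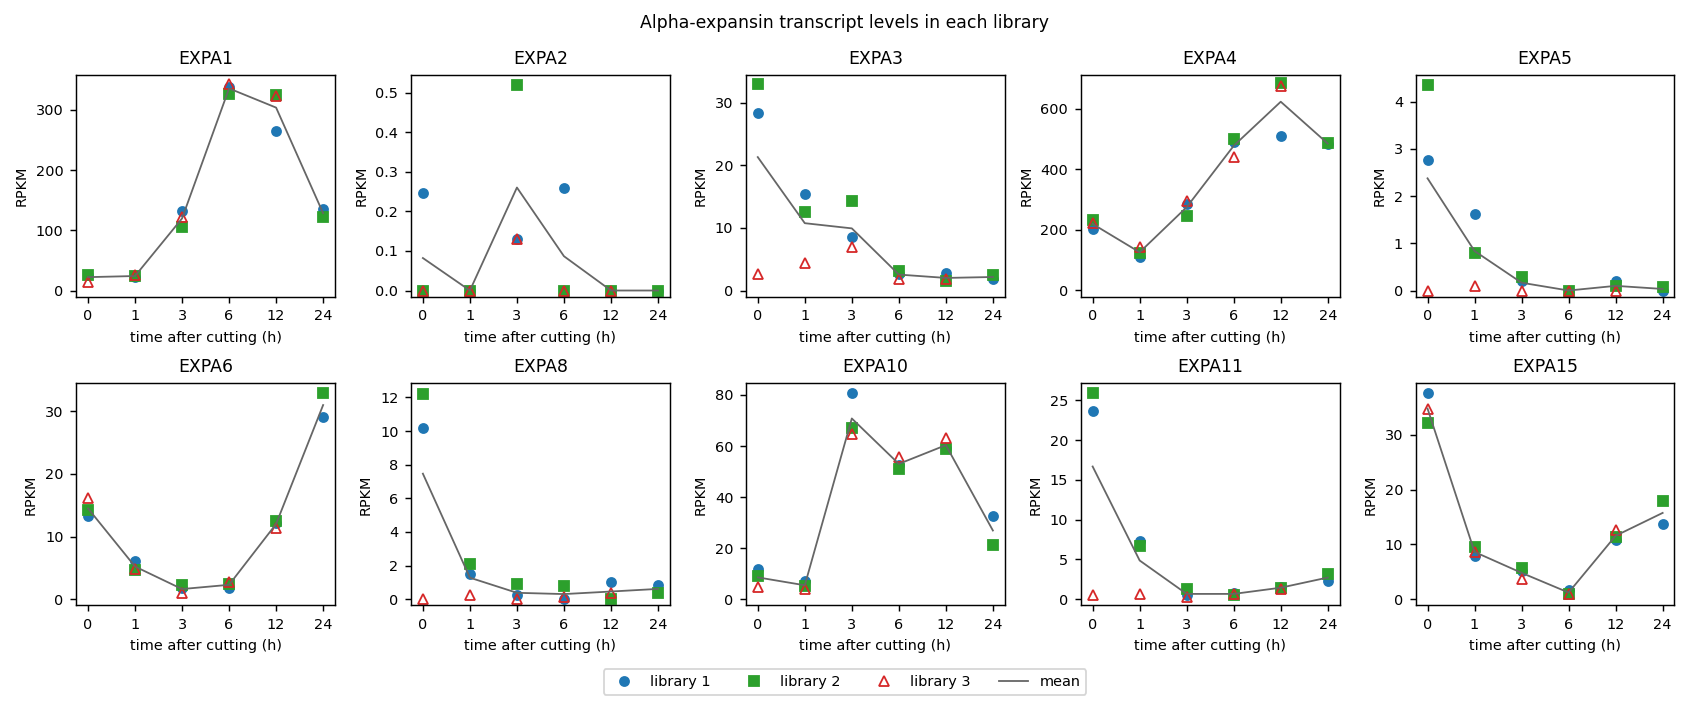
RPKM of each alpha-expansin in each library (symbols) with the mean (line) over evenly spaced time points; each panel has its own scale. EXPA1, EXPA4 and EXPA10 lie above their 0 h levels from 3 h on, EXPA6 and EXPA15 fall until 3 h or 6 h and then climb, and the open triangles of library 3 lie far under the other symbols at 0 h for EXPA3, EXPA5, EXPA8 and EXPA11.

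EXPA4 (TAIR10.1, chromosome 2, 16543832 to 16545746, minus strand) was the main transcript of the group. Its levels were 202.3, 233.2 and 223.8 RPKM at 0 h, 111.0, 122.5 and 145.1 after 1 h, and 284.7, 245.6 and 295.7 at 3 h. They were 491.2, 500.4 and 442.5 RPKM at 6 h, 510.1, 684.7 and 675.9 after 12 h, and 483.9 and 486.6 at 24 h. All libraries of 1 h lay under those of 0 h and all later ones lay over them. EXPA4 fell at 1 h by 0.80 on the log2 scale (SE 0.12, limma adjusted p 1.91e-05) and rose by 1.12 after 6 h (4.7e-07), 1.49 at 12 h (2.73e-08) and 1.14 after 24 h (2.29e-06). The rise at 3 h, 0.32 (adjusted p 0.0243), was the smallest, and its call was lost with quantile normalization (0.08, adjusted p 0.598) and without library 1 of 0 h (0.26, 0.0922), library 1 of 3 h (0.30, 0.0706) or library 3 of 3 h (0.27, 0.0922).

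EXPA1 (chromosome 1, 26141726 to 26143538, plus strand), known for its expression in guard cells and in the founder cells of lateral roots, had the largest rise of the 10. It stood at 25.7, 26.3 and 14.5 RPKM at 0 h and at 22.0, 24.4 and 25.7 after 1 h, and then at 131.3, 105.7 and 121.9 at 3 h. The 6 h libraries held 338.7, 325.6 and 342.2 RPKM, those of 12 h 264.5, 324.1 and 322.3, and those of 24 h 134.6 and 122.0. The 0 h and 1 h libraries overlapped, and every later library was above both. Compared with 0 h the log2 change was 2.42 at 3 h (SE 0.17, limma adjusted p 4.26e-09), 3.90 after 6 h (2.33e-11), 3.76 at 12 h (9.42e-11) and 2.52 after 24 h (2.27e-08), a ratio of mean RPKM of 15.1 at 6 h. Without library 3 of 0 h these were 2.15, 3.64, 3.49 and 2.26, and all stayed called.

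At 1 h EXPA1 did not pass the test, at 0.15 (SE 0.17, limma adjusted p 0.411). That value turned to -0.11 (adjusted p 0.343) without library 3 of 0 h and was called higher with median centring of each library (0.42, adjusted p 0.0343), so it had no fixed direction. The median of all tested genes at 1 h was itself -0.36, and -0.10 with median centring.

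EXPA10 (chromosome 1, 9259432 to 9261313, plus strand), which in Arabidopsis promotes leaf growth and works in the pedicel, reached its highest level earliest of the 3. It was at 11.9, 9.11 and 4.73 RPKM at 0 h, 7.13, 5.23 and 4.06 after 1 h, and 80.7, 66.9 and 64.7 at 3 h. It then held 52.4, 50.9 and 55.7 RPKM at 6 h, 59.2, 58.9 and 63.0 after 12 h, and 32.5 and 21.3 at 24 h. The libraries of 0 h and 1 h overlapped and those from 3 h on were all higher. The log2 changes from 0 h were 2.98 at 3 h (SE 0.24, limma adjusted p 3.85e-08), 2.57 after 6 h (1.95e-07), 2.76 at 12 h (1.37e-07) and 1.59 after 24 h (0.000129), and without library 3 of 0 h they were 2.65, 2.24, 2.43 and 1.26. At 1 h the change of -0.51 was not called (adjusted p 0.0671), but it was without library 3 of 0 h (-0.84, adjusted p 0.001) or without library 1 of 1 h (-0.69, 0.0265).

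EXPA15 (chromosome 2, 916806 to 918671, minus strand) had the largest fall on the log2(RPKM + 1) scale, with or without library 3 of 0 h. As a ratio of mean RPKM at 6 h its fall was 28.5-fold, against 24.8-fold for EXPA11 and 24.2-fold for EXPA8. Without library 3 of 0 h the ratios of EXPA11 (36.8-fold) and EXPA8 (36.3-fold) were above that of EXPA15 (28.6-fold). Reads at 6 h were few, with 7, 5 and 6 for EXPA11, 0, 7 and 1 for EXPA8 and 19, 10 and 10 for EXPA15. The order of these ratios is therefore uncertain, and EXPA5, with no read at 6 h, has no ratio. The levels of EXPA15 were 37.6, 32.2 and 34.7 RPKM at 0 h, 7.82, 9.54 and 8.56 after 1 h, 5.09, 5.72 and 3.66 at 3 h, and 1.78, 0.940 and 0.943 after 6 h. They were 10.8, 11.4 and 12.6 RPKM at 12 h and 13.6 and 17.9 at 24 h. No 2 time points next to each other in the order of its means overlapped, from 0 h through 24 h, 12 h, 1 h and 3 h down to 6 h. EXPA15 was lower at every later time, with log2 changes of -1.89 at 1 h (SE 0.16, limma adjusted p 3.74e-08), -2.63 after 3 h (6.5e-10), -4.03 at 6 h (6.31e-12), -1.51 after 12 h (5.94e-07) and -1.104 at 24 h (6.05e-05).

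EXPA6 (chromosome 2, 12431338 to 12433796, minus strand) fell less and ended above its start. It was at 13.2, 14.2 and 16.1 RPKM at 0 h, 6.08, 4.72 and 4.84 after 1 h, 1.76, 2.20 and 0.920 at 3 h, and 1.74, 2.49 and 2.68 after 6 h. At 12 h it was at 12.2, 12.4 and 11.4 RPKM and at 24 h at 29.1 and 32.8, the highest levels of its course. The 3 h and 6 h libraries overlapped, and the other neighbours in the order of its means did not. EXPA6 fell, with log2 changes of -1.32 at 1 h (SE 0.16, limma adjusted p 3.29e-06), -2.59 after 3 h (1.26e-09) and -2.24 at 6 h (6.86e-09), and rose by 1.05 after 24 h (SE 0.18, 0.000144). The value at 12 h, -0.25, was not called (adjusted p 0.199), although its 3 libraries were all under those of 0 h.

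Sequence upstream of 3 of these genes is shown because EXPA4 had the highest level in every library and, on the log2(RPKM + 1) scale, EXPA1 had the largest rise and EXPA15 the largest fall. Each is the 250 bases before the annotated gene start, read from the RefSeq genome TAIR10.1 and written 5′ to 3′ on the gene's strand: chr2:16545747-16545996 (minus) for EXPA4, chr1:26141476-26141725 (plus) for EXPA1 and chr2:918672-918921 (minus) for EXPA15. Capitals mark matches on either strand to the motifs searched, which are the G-box CACGTG, the auxin response element TGTCTC and its variant TGTCGG, the brassinosteroid response element CGTGTG and its variant CGTGCG, the W-box core TTGACC and its variant TTGACT, the GCC box GCCGCC and the TATA box TATAAA.
EXPA4: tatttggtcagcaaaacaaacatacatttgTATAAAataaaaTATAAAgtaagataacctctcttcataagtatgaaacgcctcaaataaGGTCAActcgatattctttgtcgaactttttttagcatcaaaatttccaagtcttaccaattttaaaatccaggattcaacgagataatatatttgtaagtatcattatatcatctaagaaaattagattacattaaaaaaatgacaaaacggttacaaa
EXPA1: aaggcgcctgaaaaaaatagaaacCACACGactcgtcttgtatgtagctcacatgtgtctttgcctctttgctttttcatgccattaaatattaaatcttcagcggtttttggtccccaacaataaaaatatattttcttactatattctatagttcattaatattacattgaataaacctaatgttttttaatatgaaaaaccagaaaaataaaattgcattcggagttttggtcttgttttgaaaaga
EXPA15: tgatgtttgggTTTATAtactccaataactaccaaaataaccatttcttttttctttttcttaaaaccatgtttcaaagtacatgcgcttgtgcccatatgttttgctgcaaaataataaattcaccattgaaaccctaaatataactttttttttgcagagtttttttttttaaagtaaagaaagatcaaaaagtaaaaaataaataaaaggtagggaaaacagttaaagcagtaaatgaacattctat

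The letters of these motifs were common or rare among the windows of all 19156 tested genes that had one. TATAAA was found in 46.4% of them, and in those of EXPA3, EXPA4, EXPA5, EXPA11 and EXPA15. CGTGTG was in 5.61% of windows, and in those of EXPA1, EXPA2 and EXPA6, while TGTCTC was in 10.5%, and in those of EXPA5, EXPA6 and EXPA10. TTGACC was in 12.4% and in the windows of EXPA4 and EXPA8, and TTGACT in 18.9% and in that of EXPA8. CACGTG (7.38%), TGTCGG (4.60%), CGTGCG (1.70%) and GCCGCC (2.0%) were in none of the 10 windows. EXPA1, EXPA4 and EXPA10, all called higher than at 0 h from 3 h on, had no searched motif in common in this window.

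EXPA3, EXPA5, EXPA8 and EXPA11 made up the group that was highest at 0 h and low later. With library 1 or 2 of 0 h left out in place of library 3, their 12 calls against 0 h became 2 and 1. EXPA3 (chromosome 2, 15787523 to 15790139, minus strand) was at 28.4, 33.0 and 2.65 RPKM at 0 h, 15.4, 12.5 and 4.40 after 1 h, and 8.52, 14.4 and 6.89 at 3 h. It was at 2.65, 3.08 and 1.92 RPKM at 6 h, 2.75, 1.48 and 1.80 after 12 h, and 1.77 and 2.55 at 24 h. All libraries from 6 h on were under those of 3 h, and only library 3 of 0 h lay at their level. EXPA3 fell, with log2 changes of -2.13 at 6 h (SE 0.67, limma adjusted p 0.0123), -2.38 after 12 h (0.0073) and -2.29 at 24 h (0.0176), and without library 3 of 0 h of -3.17, -3.41 and -3.33 (6.36e-06, 4.19e-06 and 1.51e-05). At 1 h and 3 h the changes were -0.54 (0.485) and -0.55 (0.487) with all libraries, and -1.57 (0.00252) and -1.59 (0.00254) without it.

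EXPA11 (chromosome 1, 6998335 to 6999839, minus strand) was at 23.6, 25.8 and 0.559 RPKM at 0 h, 7.28, 6.64 and 0.680 after 1 h, 0.562, 1.23 and 0.224 at 3 h, and 0.782, 0.561 and 0.675 after 6 h. It was slightly higher again later, at 1.56, 1.45 and 1.34 RPKM at 12 h and 2.24 and 3.22 at 24 h, and the libraries of 6 h, 12 h and 24 h did not overlap. EXPA11 fell, with log2 changes of -2.64 at 3 h (SE 0.87, limma adjusted p 0.0156) and -2.60 after 6 h (0.0169), while those of -1.09 at 1 h (0.271), -2.04 after 12 h (0.055) and -1.45 at 24 h (0.214) were not called. Without library 3 of 0 h it was called lower at each time, with changes of -2.44, -3.99, -3.94, -3.39 and -2.80 in order of time. The change at 12 h was also called lower with median centring (-2.11, 0.0459), quantile normalization (-2.22, 0.0352), a filter of 5 RPKM (0.048) and without library 3 of 1 h (0.0344).

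EXPA8 (chromosome 2, 16948791 to 16950705, minus strand) was at 10.2, 12.2 and 0 RPKM at 0 h and at 1.52, 2.09 and 0.234 at 1 h, and at most 1.03 RPKM in any later library. Its reads at 0 h numbered 233, 106 and 0. EXPA8 fell, with log2 changes of -1.99 at 3 h (SE 0.74, limma adjusted p 0.0284), -2.06 after 6 h (0.0236) and -1.92 at 12 h (0.0363), and those of -1.31 after 1 h (0.124) and -1.72 at 24 h (0.0872) were not called. Without library 3 of 0 h all 5 were called, from -3.27 at 6 h to -2.51 at 1 h.

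EXPA5 (chromosome 3, 11011262 to 11013451, minus strand), an expansin of brassinosteroid-linked growth, was the lowest of the 9 tested genes. It was at 2.77, 4.35 and 0 RPKM at 0 h and 1.61, 0.797 and 0.1002 at 1 h, and at most 0.296 in any later library. It thus reached 1 RPKM only in libraries 1 and 2 of 0 h and library 1 of 1 h. EXPA5 passed the filter through these libraries, so the direction of its change was largely set in advance. No read was found in the 3 libraries of 6 h, so with 3 reads over that group as the limit EXPA5 was at least 24.0-fold lower there than at 0 h, and at least 35.9-fold lower when library 3 of 0 h was left out. EXPA5 fell, with log2 changes of -1.23 at 3 h (SE 0.45, limma adjusted p 0.0239), -1.45 after 6 h (0.00995), -1.31 at 12 h (0.019) and -1.40 after 24 h (0.0255), and at 1 h its change of -0.66 was called only without library 3 of 0 h (adjusted p 0.198 with it, -1.38 and 0.000417 without).

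EXPA2 (chromosome 5, 1568694 to 1569915, plus strand), a gene of germinating seeds, had 13 reads in all 17 libraries together. It reached at most 0.520 RPKM, in library 2 of 3 h, and was at 0 in every library of 1 h, 12 h and 24 h. Its change was not detectable at this depth. It was the only one of the 10 genes whose annotated span overlapped another gene, the antisense AT5G05300, and the counting is not stated to use strand.

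The comparison with 0 h was then counted over the 9 tested genes and read against all 19656 tested genes. EXPA5 was among the 9 only through libraries of 0 h and 1 h, so the direction of its calls was largely set in advance. At 1 h, 0 of the 9 were called higher and 3 lower (EXPA4, EXPA6 and EXPA15), against 72.9% of all genes called, 18.2% higher and 54.7% lower. The 0 was also 0 at an unadjusted p under 0.05 with limma and, here and below, among adjusted calls with limma-voom. Without library 3 of 0 h, 8 of the 9 were called lower at 1 h, all but EXPA1, against 71.2% of all genes called and 53.9% lower. At 3 h the counts were 3 higher and 5 lower (67.0% of all genes called, 27.6% higher and 39.3% lower), and 3 and 6 without library 3 of 0 h (64.7% of all genes, 26.2% and 38.5%). The 8 calls at 3 h became 4 without library 1 of 0 h, 5 without library 2 of 0 h and 5 without library 3 of 3 h. At 6 h all 9 were called, 3 higher and 6 lower (67.3% of all genes, 30.2% and 37.1%), the same 3 and 6 without library 3 of 0 h (65.1% of all genes, 29.1% and 36.0%), and 5 were called without library 2 of 0 h.

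At 12 h, 3 were higher and 4 lower (62.3% of all genes, 34.4% and 27.8%), or 3 and 5 without library 3 of 0 h (58.5% of all genes, 31.9% and 26.6%). At 24 h, 4 were higher, with EXPA6 joining EXPA1, EXPA4 and EXPA10, and 3 lower (59.4% of all genes, 36.2% and 23.2%), or 4 and 5 without that library (56.2% of all genes, 33.7% and 22.4%). The median log2 change over all 10 genes was -0.73, -0.89, -1.75, -0.78 and -0.60 at 1, 3, 6, 12 and 24 h, beside -0.36, -0.12, -0.07, 0.06 and 0.14 over all tested genes, and -2.10 at 6 h with EXPA5 at its limit. Without library 3 of 0 h the medians were -1.31, -1.77, -2.17, -0.84 and -0.63, beside -0.37, -0.13, -0.07, 0.06 and 0.13 over all tested genes, and -2.67 at 6 h with EXPA5 at its limit. A test for any change over the course called 7 of the 9 (93.2% of all genes), with limma adjusted p of 0.116 for EXPA8 and 0.0724 for EXPA11. All 5 comparisons share the 0 h libraries and so are not independent of each other.

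The calls of EXPA3, EXPA5, EXPA8 and EXPA11 against 0 h depended on the 0 h libraries and on the test. Of 20 comparisons, 12 were called with all libraries and 20 without library 3 of 0 h, but 2 without library 1 and 1 without library 2, which leave a pair that differs. No call remained with limma-voom on recovered reads, 1 when the fit held only the 2 time points compared and 6 with a pseudocount of 0.1, and leaving out a library of a later time point kept between 10 and 13. Every change named for the 4 genes kept its negative sign under all these settings except that of EXPA3 at 1 h and 3 h, which was 0.036 and 0.020 without library 2 of 0 h.

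**Figure D4:**
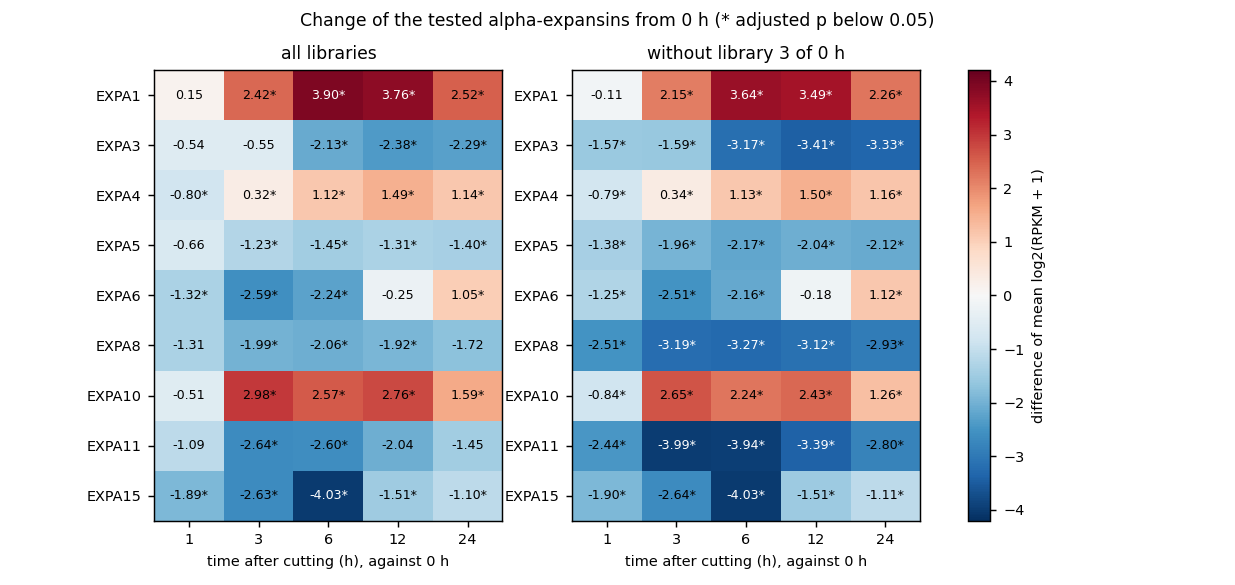
Difference of mean log2(RPKM + 1) from 0 h for the 9 tested alpha-expansins at each later time, with all libraries (left) and without library 3 of 0 h (right); a star marks an adjusted p under 0.05. The library left out on the right was singled out from the values of these same genes. EXPA1, EXPA4 and EXPA10 are positive from 3 h on in both panels, EXPA15 reaches -4.03 at 6 h in both, and EXPA11 at 6 h is -2.60 on the left and -3.94 on the right.

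Neighbouring time points from 1 h on were also compared. The differences themselves do not use the 0 h libraries. The spread in each test does, because all 17 libraries were in 1 fit. From 1 h to 3 h EXPA10 rose by 3.49 (SE 0.24, limma adjusted p 1.2e-08), EXPA1 by 2.27 (1.61e-08) and EXPA4 by 1.12 (6.93e-07), while EXPA6 fell by 1.27 (6.56e-06) and EXPA15 fell by 0.74 (0.000753), so that 3 of 9 were higher and 2 lower (60.2% of all genes called, 38.0% higher and 22.2% lower). When the third libraries of 0 h and 1 h were left out, a choice made after the data were seen, EXPA5, EXPA8 and EXPA11 were lower as well, for 3 and 5 (58.2% of all genes called, 35.7% higher and 22.5% lower). From 3 h to 6 h EXPA1 rose by 1.49 (8.27e-06) and EXPA4 by 0.80 (0.000102) and EXPA15 fell by 1.39 (7.97e-06), for 2 higher and 1 lower (33.7% of all genes called, 19.2% higher and 14.4% lower), whereas EXPA10 at -0.40 was not called (0.219). EXPA3 was not called in this step either, although its 6 h libraries all lay under those of 3 h.

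From 6 h to 12 h EXPA15 and EXPA6 turned upward, and the other 4 genes that were lower at 6 h were not called with all libraries. EXPA11 was among these 4, although its 12 h libraries all lay over those of 6 h. EXPA15 rose by 2.52 (SE 0.16, limma adjusted p 1.43e-08) and EXPA6 by 1.99 (1.69e-07), a 9.49-fold and a 5.21-fold ratio of mean RPKM. EXPA4 rose by 0.37 (0.0163), which made 3 calls, all higher (48.6% of all genes called, 32.1% higher, and no member lower, also at an unadjusted p under 0.05 and with limma-voom), and EXPA1 at -0.15 was not called (0.485). The EXPA4 call was lost with median centring (0.24, 0.112) and without library 3 of 6 h (0.32, 0.0658), library 2 of 12 h (0.30, 0.0788) or library 3 of 12 h (0.31, 0.0727).

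From 12 h to 24 h, with 2 libraries at 24 h, EXPA1 fell by 1.23 (SE 0.18, limma adjusted p 0.000288) and EXPA10 fell by 1.16 (SE 0.27, 0.00716), while EXPA6 rose by 1.296 (SE 0.18, 0.000165), for 1 higher and 2 lower (18.5% of all genes called, 10.3% higher and 8.11% lower). The EXPA10 call was lost without library 2 of 24 h (-0.87, 0.126). EXPA4 at -0.35 (0.0802) was called only without library 1 of 12 h (-0.49, 0.0125), the library with the high green tissue sum. That library was also the lowest of 12 h for EXPA1 and EXPA4.

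Over the 17 libraries, log2(RPKM + 1) of EXPA1 and EXPA10 had a Pearson r of 0.904, that of EXPA1 and EXPA4 0.885 and that of EXPA4 and EXPA10 0.761. Among the low group r was 0.934 for EXPA5 with EXPA8, 0.934 for EXPA5 with EXPA11 and 0.930 for EXPA8 with EXPA11, while EXPA3 had 0.869 with EXPA5, 0.795 with EXPA8 and 0.727 with EXPA11. EXPA6 and EXPA15 had 0.785. These values describe points that share time points and libraries and carry no test. In the low group r rests largely on the few high libraries of 0 h and 1 h. EXPA5 and EXPA8 were at most 0.296 and 1.03 RPKM from 3 h on, and r was not computed without the third libraries. The coding sequences of EXPA1 and EXPA10 were also the most alike of the 45 pairs, at 78.7% identity against a range from 58.6% and a median of 66.2%. EXPA4 and EXPA6, the next closest at 77.3%, had different courses (r 0.177). The transcripts of the 10 genes shared no stretch of 50 bases with each other or with those of another gene on the same strand.

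Outside the family, the genes with a symbol whose course over the 17 libraries was most like that of a member were listed by Pearson r. They were TOC64-V (0.985) and ASP2 (0.981) for EXPA1, OXA1 (0.988) and MAP1A (0.984) for EXPA4, and EIF4A-2 (0.976) and ABCC4 (0.970) for EXPA10. HTB2, a histone H2B gene (0.989), and DRP5A, a dynamin-related gene of cell division (0.978), were nearest to EXPA6. HTB2 stood at 85.7 RPKM at 0 h, 25.4 after 3 h and 156.5 at 24 h. The nearest to EXPA15 were TBL25 (0.968) and the wall enzyme gene XTH31 (0.957), at 692.3 RPKM at 0 h, 73.5 after 6 h and 535.0 at 24 h. In the low group they were LNG1 (0.960) and XTH17 (0.956) for EXPA3, RGF6 (0.974) and CER4 (0.961) for EXPA5, BZIP34 (0.974) and UMAMIT4 (0.954) for EXPA8, and FUT5 (0.925) and PRE1 (0.920) for EXPA11.

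Counts over the rest of the expansin family were made in the same way, and stand beside 18.2% of all tested genes higher and 54.7% lower at 1 h, 27.6% and 39.3% after 3 h, 30.2% and 37.1% at 6 h, 34.4% and 27.8% after 12 h, and 36.2% and 23.2% at 24 h. Of 16 other alpha-expansins listed, 15 were in the table and 8 were tested, of which 1 was higher and 4 lower at 1 h, 1 and 3 after 3 h, 0 and 4 at 6 h, 2 and 3 after 12 h, and 2 and 2 at 24 h. The lower share of the 8 was thus 50% at 1 h and 37.5% after 3 h, near that of all genes. EXPA16 and EXPA21 reached 1 RPKM only in libraries of 0 h. EXPA18, the 1 higher at 1 h, reached it only in libraries of 1 h. These genes passed the filter through the group where they were high, so the direction of their change was largely set in advance. The 0 at 6 h was 0 at an unadjusted p under 0.05 and 1 with limma-voom. EXPA20 fell from 8.45 ± 1.07 to 4.86 ± 0.397 RPKM at 1 h (log2 change -0.69, limma adjusted p 5.61e-05) and rose to 21.0 ± 1.32 at 12 h (1.22, 1.47e-07). EXPA14 fell from 6.03 ± 0.295 RPKM at 0 h to 1.56 ± 0.797 at 3 h (-1.51, 3.84e-05). EXPA13 was at 17.5 ± 3.62 RPKM at 0 h and fell to 10.2 ± 1.75 at 3 h (-0.73, 0.000776). EXPA18, a root hair expansin, had no read at 0 h and reached 1.55 ± 0.519 RPKM at 1 h.

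Among 10 beta-expansins and expansin-like genes, which share the fold of the alpha-expansins, 6 were tested, and the counts were 3 higher and 3 lower at 1 h, 1 and 4 after 3 h, 0 and 4 at 6 h, 3 and 2 after 12 h, and 2 and 2 at 24 h. At 1 h this was 50% higher and 50% lower, against the 18.2% and 54.7% of all genes. EXPB1, among the 3 lower, reached 1 RPKM only in libraries 1 and 2 of 0 h and library 2 of 12 h. It thus passed the filter through 0 h. The 0 at 6 h was also 0 at an unadjusted p under 0.05 and with limma-voom. The 3 that rose at 1 h, when no alpha-expansin of the 9 tested was called higher, were EXLA1, EXLA2 and EXLA3. EXLA3 rose from 2.18 ± 0.311 to 38.1 ± 3.67 RPKM (3.62, SE 0.17, limma adjusted p 4.26e-11) and EXLA1 from 25.4 ± 4.72 to 82.5 ± 7.69 (1.67, 1.11e-06). EXLA1 then fell to 5.21 ± 1.11 RPKM at 6 h (-2.09 from 0 h, 7.47e-08). EXPB3 fell from 77.8 ± 5.52 to 31.8 ± 1.74 RPKM at 3 h (-1.26, 4.83e-08) and rose to 185.2 ± 24.0 after 12 h (1.23, 9.77e-08), while EXLB1 fell from 13.1 ± 1.66 to 1.71 ± 1.05 RPKM at 3 h (-2.44, 7.34e-07).

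**Figure D5:**
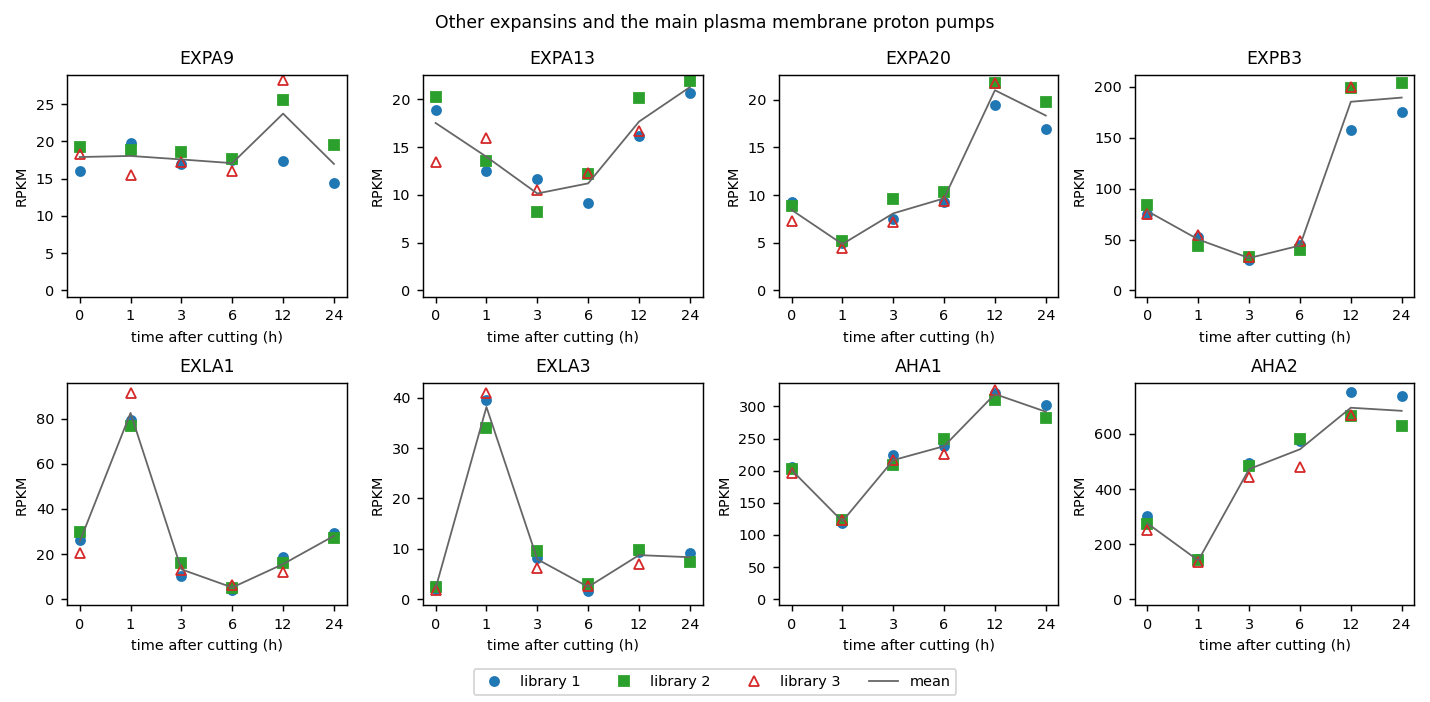
RPKM in each library (symbols) and mean (line) of 3 other alpha-expansins, EXPB3, 2 expansin-like genes and the proton pump genes AHA1 and AHA2 over evenly spaced time points. EXLA1 and EXLA3 peak at 1 h (82.5 and 38.1 RPKM), and AHA1 and AHA2 are lowest after 1 h (121.2 and 140.7 RPKM) and highest at 12 h (319.2 and 695.4 RPKM).

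The proton pumps acidify the wall in which expansins act. AHA2, the most abundant, was at 275.1 ± 24.6 RPKM at 0 h and fell to 140.7 ± 3.92 after 1 h (-0.96, SE 0.09, limma adjusted p 1.99e-07), then rose to 472.6 ± 27.0 at 3 h (0.78, 1.62e-06) and 695.4 ± 50.2 after 12 h (1.34, 5.75e-09). AHA1 fell from 201.1 ± 4.91 to 121.2 ± 2.72 RPKM at 1 h (-0.73, 1.63e-08) and rose to 319.2 ± 7.72 at 12 h (0.66, 5.73e-08). Like EXPA4, both were under the 0 h level at 1 h and over it at 12 h. The list of pumps and their regulators had 0 higher and 12 lower of 18 tested at 1 h, 1 and 12 after 3 h, 2 and 12 at 6 h, 3 and 10 after 12 h, and 3 and 8 at 24 h. The lower share was 66.7% at 1 h, against 54.7% of all tested genes, 66.7% after 3 h and 6 h (39.3% and 37.1%), 55.6% at 12 h (27.8%) and 44.4% after 24 h (23.2%). The 0 at 1 h was also 0 at an unadjusted p under 0.05 and with limma-voom, and the 11 called at 24 h became 7 without library 1 of 24 h and 14 without library 3 of 0 h. SAUR24, one of the near-identical SAUR genes whose proteins keep the pumps active, was at 5.96 ± 5.06 RPKM at 0 h and had no read at 3 h or 6 h, and reads of such copies may have been split in counting.

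A list of growth transcription factors, which were not all factors of the hypocotyl, had 13 tested genes. Of these 1 (LBD16) was higher and 9 lower at 1 h, 3 and 7 after 3, 6 and 12 h alike, and 2 and 5 at 24 h. The lower share was 69.2% at 1 h, against 54.7% of all tested genes, 53.8% after 3, 6 and 12 h (39.3%, 37.1% and 27.8%) and 38.5% at 24 h (23.2%), and the higher share at 3 h was 23.1% against 27.6%. BES1, a transcription factor of brassinosteroid signalling, fell from 138.4 ± 17.4 to 22.9 ± 3.07 RPKM at 3 h (-2.54, SE 0.11, limma adjusted p 1.7e-11), and HBI1, a growth-promoting bHLH factor, from 10.6 ± 3.85 to 0.252 ± 0.144 at 6 h (-3.17, 5.73e-09). PIF1 and PIF3, phytochrome-interacting factors, fell at 1 h (-1.86, 1.23e-08, and -1.58, 2.49e-09), and PIF3 was above its 0 h level at 3 h (39.4 ± 5.81 against 26.4 ± 3.27 RPKM, 0.56, 0.000198). LBD16, a factor of lateral root founder cells and of callus formation, rose from 6.78 ± 2.85 to 39.2 ± 4.81 RPKM after 3 h and 40.7 ± 3.99 at 6 h (2.49, 7.88e-08).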

How the data were processed

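Messenger RNA was sequenced with a stranded kit, per the labels' protocols. The authors deposited 1 table of RPKM values for 28642 genes in 17 libraries, whose header names no unit. It was read as RPKM because small values came in whole steps whose size depended on the gene and the library. Whole reads were recovered from these steps for all 24834 genes above 0 (tolerance 0.01), and 98.7% to 99.0% of mapped reads fell on listed genes. The gene length used equalled an annotated one for 3790 of these genes. For the others, every alpha-expansin followed here among them, it was the smallest length that gave whole reads. Recovered reads of genes with few reads are therefore less certain. The genome build was TAIR10, per the submitters' processing notes, while neither the aligner nor the read counter, nor what was done with multiply mapped reads, is given in the sources used here. Depths and limits from reads cover counting error only, and reads are not independent molecules.

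Values were tested as log2(RPKM + 1) with limma 3.58.1 (R 4.3.3), using an intensity trend and robust moderation, for time point as a factor of 6 levels over all 17 libraries, with Benjamini-Hochberg adjustment over the 19656 genes tested (68.6%). The script was checked on simulated reads. Alternatives were pseudocounts of 0.1 and 0.5, filters, median centring, quantile normalization, limma-voom on recovered reads, fits to 2 time points, a replicate block and leaving out each library, and, chosen after the data were seen, leaving out the third libraries of 0 h and 1 h.

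The members and the gene lists were chosen with earlier results of these data known. All 10 members are named. From each other list the 3 genes with the highest mean RPKM and the largest called rise and fall against 0 h could be named, and for each member the 2 genes with the highest Pearson r. Outside that rule, EXLA2, EXPA21, STM, KNAT1, WUS, CLV3 and CASP1 to CASP5 were named after their values were seen. Gene names came from RefSeq locus tags, which matched 28009 loci, 10588 of them with a symbol, and all 10 members. Coding identity, shared stretches and motifs were computed on TAIR10.1 with Biopython 1.88. No column of sample values was left unused.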

Additional observations from a re-analysis of the deposited data

How the results depend on the processing

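Of 2151 values of single alpha-expansins recomputed under the alternatives, 2015 kept their direction and their side of the threshold, 72 lost a call, 41 gained one and 23 changed sign, none of them a called change. The number of alpha-expansins called at 1 h (3) became 8 without the third libraries of 0 h and 1 h and ranged from 3 to 8 when 1 library was left out. At 3 h it was 8, and 5 with limma-voom or a fit to the 2 time points, with a range of 4 to 9. At 6 h it was 9, and 5 with limma-voom, with a range of 5 to 9. At 12 h it was 7, and 4 with limma-voom or the 2 time points. Against 1 h, 5 calls at 3 h became 8 without the third libraries. Leaving out only library 3 of 0 h gave 3 lower for 3 h against 1 h and 2 lower for 6 h against 3 h. Without the third libraries of both 0 h and 1 h, 3 were lower for 6 h against 3 h and 4 higher for 12 h against 6 h. Fits to 2 time points gave 5 calls in place of 3 for 6 h against 3 h and for 12 h against 6 h. Such fits hold fewer libraries and, for these 2 steps, none of 0 h, and the cause of the added calls was not tested.

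The labels do not tie the replicate numbers to a shared source, and only 16 of 40 same-numbered pairs of libraries had deviations correlated over 0.1, so the numbers were not taken to pair the libraries. The median was 0.0733 against -0.0454 for other numbers, and 14 of 17 libraries correlated best with their own number, a hint from the data and not from the design. With a replicate block the calls against 0 h numbered 4, 8, 9, 8 and 8 at 1, 3, 6, 12 and 24 h, with EXPA10 at 1 h (adjusted p 0.0295), EXPA11 at 12 h (0.0212) and EXPA8 at 24 h (0.0214) added, and 9 genes changed over the course, while 24 h against 12 h turned to -0.30 for EXPA3 and -0.19 for EXPA8, and 2 growth transcription factors were called there.

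Changes of sign lay between values that were not called. EXPA1 at 1 h was -0.16 without the third libraries and -0.11 to 0.30 with 1 library left out, EXPA5 for 12 h against 6 h was -0.0021 with median centring, and EXPA3 for 24 h against 12 h was -0.00096 with quantile normalization. With 1 library left out, EXPA3 ranged from -1.57 to 0.036 at 1 h, -1.59 to 0.020 at 3 h, -0.50 to 0.30 for 3 h against 1 h and -0.10 to 0.26 for 24 h against 12 h. EXPA8 ranged from -0.34 to 0.19 for 6 h against 3 h, -0.12 to 0.41 for 12 h against 6 h and -0.049 to 0.46 for 24 h against 12 h, and EXPA11 from -0.16 to 0.27 for 6 h against 3 h.

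Counts over the other lists moved mostly where a filter of 5 RPKM left fewer genes to test. With it, other alpha-expansins called were 2, 2, 2, 3 and 2 at 1, 3, 6, 12 and 24 h, and acid growth genes 7, 7, 8, 8 and 7, against 12, 13, 14, 13 and 11. With 2 time points, acid growth genes were 7 at 1 h and 4 at 24 h. With 1 library left out they were 7 to 14 at 24 h. Growth transcription factors at 24 h were 11 with median centring. For 6 h against 3 h, other alpha-expansins were 0 with a pseudocount of 0.1, the 5 RPKM filter, quantile normalization and limma-voom (0 to 1 with 1 library left out). Acid growth genes there were 1 with no filter, the 5 RPKM filter, median centring, quantile normalization or 2 time points (1 to 3), and growth factors 2 with no filter and 1 with 2 time points (0 to 4). For 12 h against 6 h, acid growth genes were 3 with median centring and quantile normalization. For 24 h against 12 h, other alpha-expansins were 1 with median centring and quantile normalization (0 to 1), beta-expansins 0 to 1, acid growth genes 0 with the 5 RPKM filter and 2 with limma-voom (0 to 2), and growth factors 3 with limma-voom and 2 with 2 time points (0 to 2). Few reads limit EXPA2 (13 in all) and EXPA5 (152 in all).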
